A study of Mus musculus with 12 samples.

Results

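The genes described here are 38 genes of neurons and glia, chosen by name from the growth cone and cytoskeleton, cell adhesion, the synaptic vesicle, transmission, neuronal RNA-binding proteins, neurosecretion, glia and neurotrophin signalling, and each found on the arrays through the RefSeq accession of its probes. They were chosen with earlier results of these data known. All 38 had a probe, out of 19718 named genes, and together they had 62 probes, so that 15 genes were measured more than once and the brightest probe stood for each. RNA of 4 groups, with 3 biological replicates each, was hybridised to Agilent mouse arrays in a single colour. The question put to these genes was whether a treatment meant to open germ cell genes in fibroblasts also moved genes of another lineage, in which direction, and where germ cells stand.

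OS-treated MEFs were male mouse embryonic fibroblasts on day 4 after transfection of Oct4 and Sox2 together with a cocktail of chromatin drugs (tranylcypromine, BIX-01294 and DZNep, called chem), valproic acid with an ALK5 inhibitor (VA5) and an RNAi knockdown of Dnmt1, the maintenance DNA methyltransferase. OCKS-treated MEFs had the same drugs, knockdown and day with a construct that also carries c-Myc and Klf4. E15.5 PGCs were germ cells from the genital ridges of female embryos of an MCH by C57BL6/J cross that carries the Oct4_delta_PE-GFP transgene. Control MEFs, for which the labels name no treatment, were also male, and all MEFs came from crosses of C57BL6/J mice carrying the Vasa::RFP and Oct4_delta_PE-GFP transgenes. Plasmids and siRNAs were delivered by lipofection, with the OCKS construct under a CAG promoter and the Oct4 and Sox2 constructs under a CMV-derived one, and each array averages over all cells collected. PGCs and MEFs differ in sex and cross as well as cell type, which cannot be told apart here.

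Fibroblasts are mesenchymal cells, and most genes of the axon, synapse and myelin are held low in them. A well-known brake on such genes is REST, a zinc-finger repressor that binds a motif called RE1 near neuronal genes and recruits histone deacetylases, the demethylase Kdm1a and the methyltransferase Ehmt2. Several of these partners are the targets of the drugs used here, and DNA methylation is a further layer at some promoters. Embryonic fibroblast cultures can also hold Schwann, crest and other cells of the embryo, since they are made from the body and not from a purified cell type.

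The arrays differed in the share of spots detected. Of the 43020 spots, 71.9% to 85.6% were well above background, 0 were saturated, and replicate arrays correlated at 0.989 to 0.995. The share was 73.2% for MEF replicate 1, against 81.7% and 82.9% for MEF replicates 2 and 3. Treated arrays ranged from 71.9% to 79.1%. Counts of arrays above background for dim genes were not adjusted for this. All 15 fibroblast markers were well above background on every MEF and treated array, and all 14 germ cell markers on every PGC array. All 15 fibroblast markers were also detected on every PGC array. Of the germ cell markers, 8 were detected on every MEF array, 11 on every OS array and 10 on every OCKS array. Detection alone therefore does not tell the groups apart. Levels are given as the log2 signal relative to the 75th percentile of the array, so that 0 is that percentile and -1 is 2-fold below it. Levels of different genes come from different probes and are not compared with each other. A comparison covers the genes that 1 or both of its groups had well above background on 3 of 3 arrays. Genes are said to rise or fall where the change was 2-fold or more and the p of limma, adjusted by Benjamini-Hochberg over every gene tested, was under 0.001. OS and OCKS arrays shared no slide with MEF arrays, so treatment and slide cannot be told apart. The main fit leaves the slide out, and it enters as a random block in an alternative fit only. The p-values measure the spread between these replicates, of which replicates 2 and 3 of each group shared a slide.

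For 25 of the 38 genes RefSeq gives promoter windows of 250 bases before and 50 bases after a transcription start (37 windows, build GRCm38.p6). Of 6 genes past the thresholds in treated MEFs, 1 window each is printed here, 5′ to 3′ on the gene's strand, so that the 2 features most often discussed for such genes can be seen. Cntn1 (chr15:92050915-92051214, plus strand), Nrxn3 (chr12:89812233-89812532, plus strand) and Ntrk2 (chr13:58806319-58806618, plus strand) rose under both treatments. Their window with the most CG dinucleotides, the substrate of Dnmt1, is shown with each CG in capitals.
Cntn1: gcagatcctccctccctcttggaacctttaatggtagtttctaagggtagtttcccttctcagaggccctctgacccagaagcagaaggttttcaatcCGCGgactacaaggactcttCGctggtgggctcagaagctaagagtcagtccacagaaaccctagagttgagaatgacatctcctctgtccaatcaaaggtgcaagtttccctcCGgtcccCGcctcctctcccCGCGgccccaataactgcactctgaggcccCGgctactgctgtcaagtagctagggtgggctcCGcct
Nrxn3: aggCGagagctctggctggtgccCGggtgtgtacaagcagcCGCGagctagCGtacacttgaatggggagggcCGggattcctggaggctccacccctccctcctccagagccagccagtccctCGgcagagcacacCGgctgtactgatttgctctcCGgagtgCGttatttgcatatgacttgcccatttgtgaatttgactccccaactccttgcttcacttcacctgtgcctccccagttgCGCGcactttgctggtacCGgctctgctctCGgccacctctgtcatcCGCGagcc
Ntrk2: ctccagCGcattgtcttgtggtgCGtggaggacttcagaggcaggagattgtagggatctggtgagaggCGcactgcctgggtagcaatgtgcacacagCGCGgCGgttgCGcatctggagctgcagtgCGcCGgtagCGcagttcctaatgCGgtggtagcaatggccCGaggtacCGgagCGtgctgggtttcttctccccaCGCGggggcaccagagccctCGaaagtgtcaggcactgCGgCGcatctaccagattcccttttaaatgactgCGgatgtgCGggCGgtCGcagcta
The Cntn1 window held 9 CG, the Nrxn3 window 16 and the Ntrk2 window 23. The other windows of Cntn1 held 5 and 4 CG and those of Nrxn3 held 2 and 6. Among genes with a window, the most CG-rich window held 3 to 23 CG (median 14) for the 5 that rose in OS-treated MEFs and 16 to 37 (median 26) for the 5 that fell. For the 8 that did not pass it held 3 to 25 (median 19.5). The median of all windows was 7, which takes every window and not the richest of a gene. With so few genes a difference by direction was not tested. These counts describe the windows only, and methylation was not measured in these files.

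The other 3 windows hold TTCAGCACC, the left arm of the RE1 motif, on either strand. Nlgn1 (chr3:26153937-26154236, minus strand) rose in OS-treated MEFs, while Syn1 (chrX:20920869-20921168, minus strand) and Scg2 (chr1:79439977-79440276, minus strand) fell under both treatments. Capitals mark the RE1 arm and TGACGTCA, the cyclic AMP response element (CRE).
Nlgn1: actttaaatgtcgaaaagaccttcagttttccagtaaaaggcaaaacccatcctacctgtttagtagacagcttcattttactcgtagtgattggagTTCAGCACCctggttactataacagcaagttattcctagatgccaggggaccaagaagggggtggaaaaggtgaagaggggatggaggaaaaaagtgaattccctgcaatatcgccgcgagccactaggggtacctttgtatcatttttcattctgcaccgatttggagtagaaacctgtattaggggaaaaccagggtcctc
Syn1: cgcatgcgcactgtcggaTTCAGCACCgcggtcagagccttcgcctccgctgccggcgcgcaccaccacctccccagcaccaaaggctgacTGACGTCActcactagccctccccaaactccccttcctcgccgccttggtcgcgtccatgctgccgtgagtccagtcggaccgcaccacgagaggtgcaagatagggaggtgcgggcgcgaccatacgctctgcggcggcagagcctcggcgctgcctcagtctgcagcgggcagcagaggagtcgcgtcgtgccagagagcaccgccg
Scg2: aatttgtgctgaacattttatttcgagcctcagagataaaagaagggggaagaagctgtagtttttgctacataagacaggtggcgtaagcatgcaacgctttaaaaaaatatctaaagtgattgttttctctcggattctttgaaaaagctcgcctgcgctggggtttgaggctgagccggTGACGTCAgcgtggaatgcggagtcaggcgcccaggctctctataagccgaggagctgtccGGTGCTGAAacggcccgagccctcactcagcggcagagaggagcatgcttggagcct
The RE1 arm lay 153 to 145 bases upstream of the start in Nlgn1 and 232 to 224 bases upstream in Syn1. In Scg2 it was on the opposite strand, reaching from 7 bases upstream to base 2 of the transcript. The CRE lay 159 to 152 bases upstream in Syn1 and 68 to 61 bases upstream in Scg2, and did not overlap the RE1 arm. Of all 32851 windows, 0.371% held TTCAGCACC on either strand and 1.79% held TGACGTCA. The RE1 motif with both arms was in 4 windows and in none of these genes, and ATTTGCAT, the octamer that Oct4 family proteins bind, was in 1.74% of windows and in the printed one of Nrxn3. The search for the RE1 motif with both arms took exact letters only, so near matches were not counted. The printed Syn1 window holds such a near match, in which the second arm follows the first and differs in a single letter. On the opposite strand, the printed Scg2 window holds both arms with exact letters, but without the gap that the searched motif has between them. Absence from the count therefore does not show that Syn1 or Scg2 has the left arm alone. A match of letters is not a bound site, and the windows cover only 300 bases of each gene.

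In OS-treated MEFs the 38 genes split in 2 directions. Of 29 tested, 6 rose (20.7%), against 10.5% of all genes tested, and 9 fell (31.0%), against 13.2%, and 14 did not pass. Because the genes were chosen with earlier results known, these shares are a description and not independent support. Without MEF replicate 1 the share that rose was 9.09% (3 genes), against 8.94% of all genes, and with only OS and MEF arrays in the fit it was 10.3% (3 genes), against 9.22%. Their median change was -0.32 on the log2 scale, against -0.21 over all genes. Those that rose were adhesion proteins of the axon and synapse, a growth cone protein, a glial calcium-binding protein and the BDNF receptor. Those that fell were synaptic vesicle proteins, microtubule proteins, a granin, Ncam1 and Sox10. Groups did not overlap for 22 of the 29 (75.9%), against 71.9% of all genes. The number of falls depended on the scaling: with the spike-in RNA as the scale, which placed the median of all genes at 0.61, 3 members fell (Ncam1, Snap25 and Syn1) and 7 rose, and no called member changed sign. Rises were 44.5% of all calls in the main setting, 87.3% with the spike-in scale and 54.2% after normexp correction and quantile normalization.

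In OCKS-treated MEFs 4 of 28 genes tested rose (14.3%), against 11.0% of all genes, 9 fell (32.1%), against 14.4%, and 15 did not pass. The median change was -0.37, against -0.19 over all genes. Groups did not overlap for 19 of the 28 (67.9%), against 71.3% of all genes. Rises were 43.4% of all calls, 67.4% with the spike-in scale and 53.0% after normexp correction. The OS and OCKS comparisons use the same 3 control arrays, so their values stand side by side here and are not counted as 2 independent results.

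**Figure D1:**
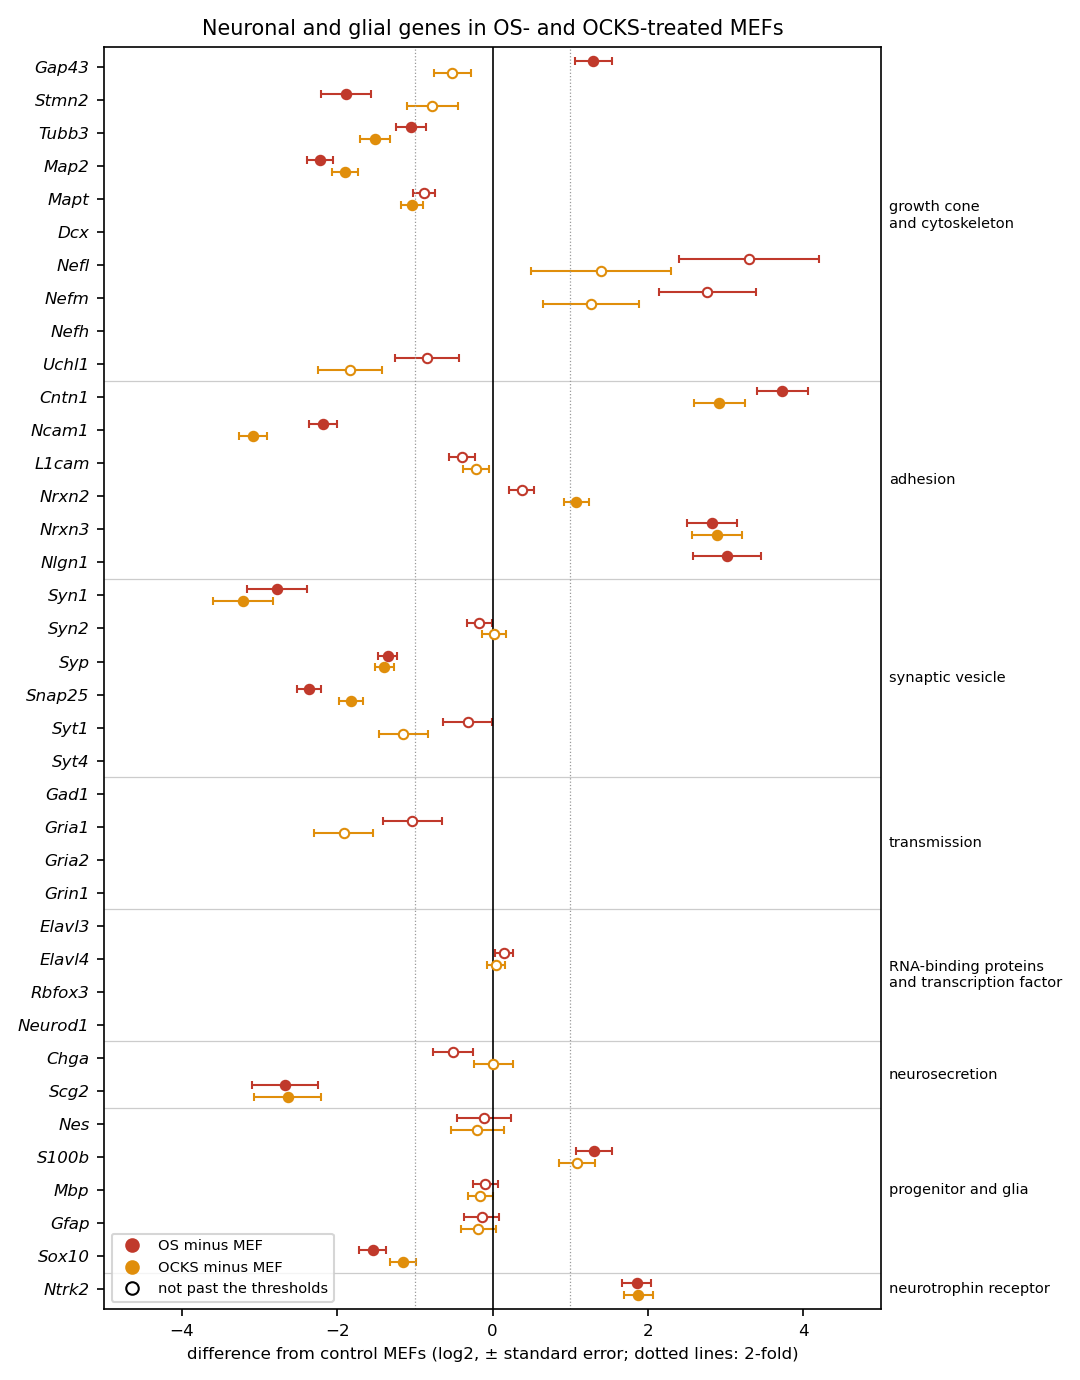
Differences of the 38 genes from control MEFs (x axis, log2, bars ± standard error) in OS-treated (red) and OCKS-treated MEFs (orange), by role (rows); filled points passed both thresholds and rows without a point were not tested. Adhesion genes other than Ncam1 lie to the right or near 0, while synaptic vesicle genes lie to the left or near 0.

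Of the 6 adhesion genes, OS raised 3 and lowered 1, and of the 5 tested with OCKS the counts were also 3 and 1. Cntn1, which encodes contactin 1, an axonal immunoglobulin protein anchored to the membrane, was at 1.40, 0.44 and -0.24 in OS-treated MEFs and -0.52, -0.21 and -0.08 in OCKS-treated MEFs, against -3.40, -3.13 and -3.04 in control MEFs. Every treated array lay above every control array. Cntn1 rose by 3.73 (standard error 0.33, 13.3-fold, adjusted p = 4.58e-06, limma) with OS and by 2.92 (7.57-fold, adjusted p = 2.41e-05) with OCKS.

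Nrxn3, a neurexin of the presynaptic membrane, was at -5.50, -5.22 and -4.67 in OS-treated MEFs and -5.23, -5.02 and -4.96 in OCKS-treated MEFs, against -8.40, -7.96 and -7.51 in control MEFs, where 2 of 3 arrays were well above background. It rose by 2.83 with OS (standard error 0.32, adjusted p = 2.99e-05) and by 2.89 with OCKS (adjusted p = 2.46e-05), and the treated arrays lay apart from the controls. A further Nrxn3 probe gave rises of 1.84 and 2.01, and the other 2 were not above background on any array. With normexp background correction and quantile normalization the rises came to 0.91 with OS and 0.92 with OCKS, under 2-fold.

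Nlgn1, the postsynaptic partner of neurexins, was not well above background on any control array. It was at -5.55, -6.22 and -6.79 in OS-treated MEFs, and at -7.64, -6.65 and -6.22 in OCKS-treated MEFs, where the first of these values was not above background. Control MEFs gave -9.38, -9.82 and -8.43. The rise with OS was at least 3.53-fold (adjusted p = 0.00016, limma), and with OCKS, where the gene was not tested, the bound was 2.25-fold. For such a bound, each array of the dimmer group is raised to the lowest signal that passed as well above background, unless the gene was already brighter. With the normexp correction the OS rise was 0.51 and did not pass (adjusted p = 0.0017).

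Nrxn2, another neurexin, passed only with OCKS. It was at -2.71, -2.74 and -2.60 in OS-treated MEFs and -1.81, -2.37 and -1.74 in OCKS-treated MEFs, against -3.14, -3.16 and -2.86 in control MEFs. Its change was 1.08 with OCKS (adjusted p = 0.00016) and 0.37 with OS (adjusted p = 0.059), and the difference between the treatments was 0.71 (standard error 0.16, adjusted p = 0.11). The second Nrxn2 probe gave 0.21 with OCKS and -0.27 with OS, so the call rests on 1 probe.

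Ncam1 moved the other way within this role. The neural cell adhesion molecule (chr9:49502129-49799393) was at 1.41, 1.85 and 1.10 in OS-treated MEFs and 0.68, 0.32 and 0.66 in OCKS-treated MEFs, against 3.61, 3.62 and 3.68 in control MEFs. It fell by 2.19 with OS (standard error 0.18, 4.55-fold, adjusted p = 2.92e-06) and by 3.09 with OCKS (8.50-fold, adjusted p = 2.80e-07). All 3 of its probes passed, with changes of -1.93 to -2.67 for OS and -2.67 to -3.40 for OCKS. L1cam, an axonal adhesion protein of the same superfamily, changed by -0.39 and -0.21 and did not pass.

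**Figure D2:**
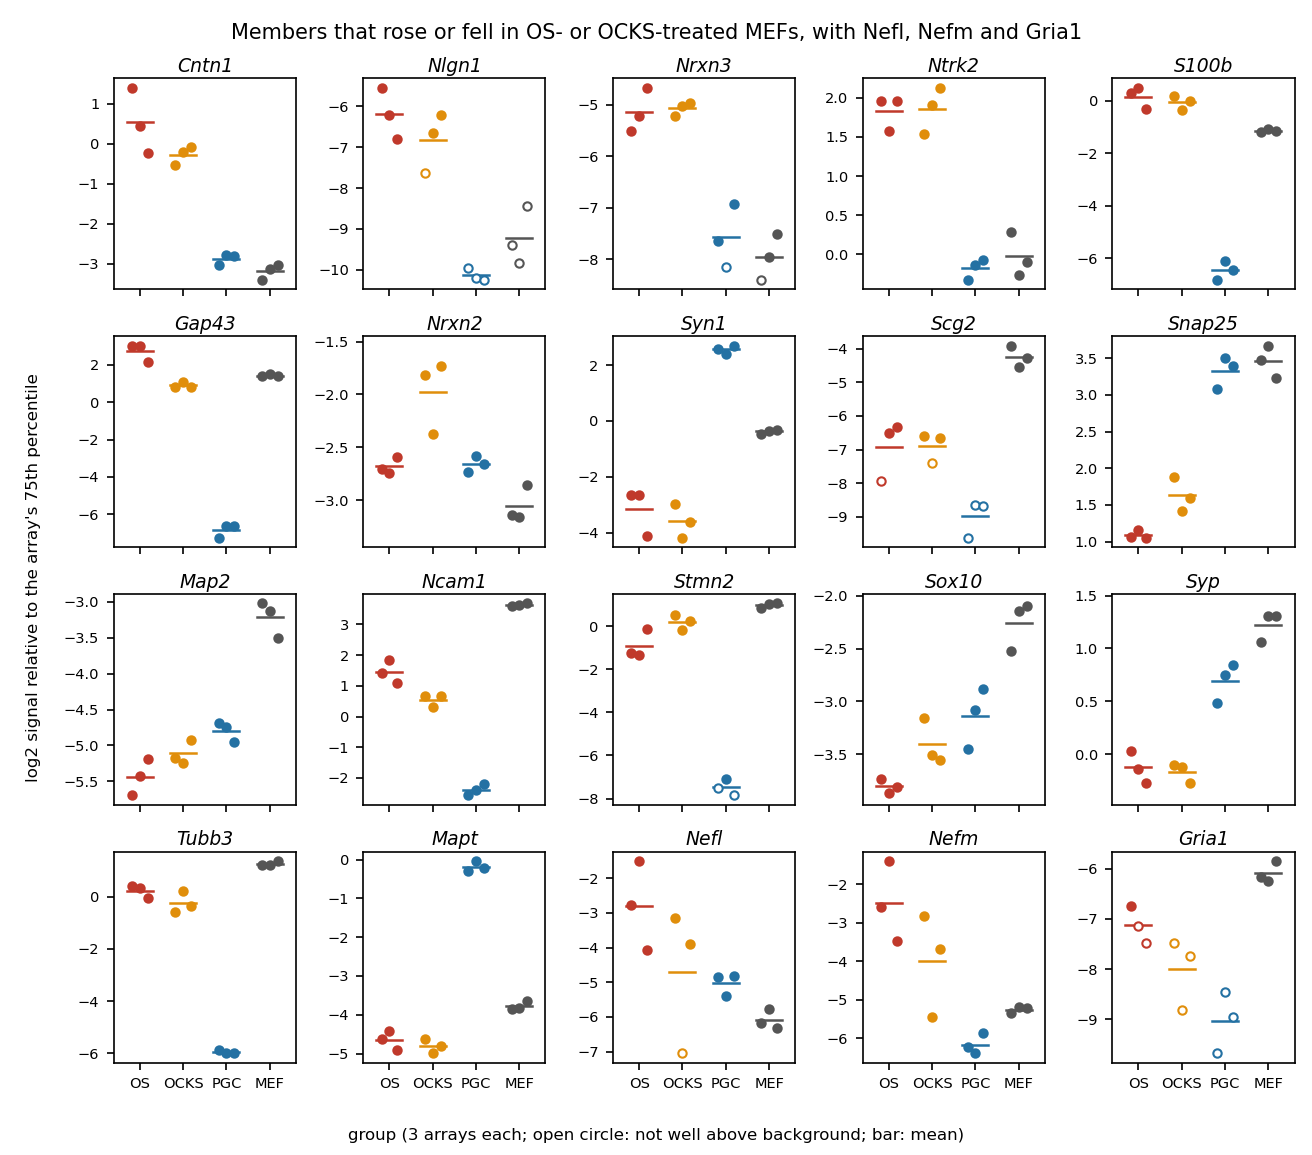
Level on each array (y axis, log2 relative to the 75th percentile of the array, with its own scale in each panel) of the 17 genes that rose or fell in treated MEFs and of Nefl, Nefm and Gria1, in OS, OCKS, PGC and MEF arrays (x axis); open circles were not well above background and bars are means of 3 arrays. For Cntn1 and Ntrk2 both treated groups lie above PGCs and control MEFs, and for Gap43 the OS arrays lie above and the OCKS arrays below the control arrays.

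Genes of the synaptic vesicle fell or did not pass. Syn1, a synapsin that tethers vesicles, was at -2.66, -2.65 and -4.14 in OS-treated MEFs and -2.97, -4.18 and -3.62 in OCKS-treated MEFs, against -0.45, -0.37 and -0.31 in control MEFs. It fell by 2.77 with OS (standard error 0.39, adjusted p = 0.00012) and by 3.21 with OCKS (9.27-fold, adjusted p = 4.24e-05). The control arrays were tight and every treated array lay well below them.

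Snap25 (chr2:136713439-136782428), a SNARE of vesicle fusion, was at 1.07, 1.16 and 1.05 in OS-treated MEFs and 1.89, 1.42 and 1.59 in OCKS-treated MEFs, against 3.47, 3.67 and 3.23 in control MEFs. The fall was 2.36 with OS (5.15-fold, adjusted p = 6.69e-07) and 1.82 with OCKS (3.54-fold, adjusted p = 3.67e-06). All OCKS arrays lay above all OS arrays, by 0.54 (standard error 0.16), which did not pass (adjusted p = 0.15).

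Syp, the vesicle membrane protein synaptophysin, was at 0.03, -0.14 and -0.27 in OS-treated MEFs and -0.10, -0.13 and -0.27 in OCKS-treated MEFs, against 1.06, 1.31 and 1.31 in control MEFs. It fell by 1.35 (adjusted p = 6.04e-06) and by 1.39 (adjusted p = 4.75e-06). The groups were again apart. Syn2 changed by -0.17 and 0.02, and Syt1, the calcium sensor of release, by -0.32 with OS and -1.15 with OCKS (adjusted p = 0.0081), so neither passed. The second Syn2 probe, not tested in these comparisons, gave -0.99 with OS and -1.07 with OCKS. Syt4, an atypical synaptotagmin, was above background on none of the 12 arrays.

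Among microtubule proteins Map2 and Tubb3 fell under both treatments, Stmn2 with OS and Mapt with OCKS. Map2, of dendrites, was at -5.70, -5.43 and -5.19 in OS-treated MEFs and -5.17, -5.25 and -4.92 in OCKS-treated MEFs, against -3.02, -3.13 and -3.50 in control MEFs. It fell by 2.22 (standard error 0.16, adjusted p = 1.45e-06) and by 1.90 (adjusted p = 4.07e-06), and its other probe gave -2.07 and -1.84. Mapt, which encodes the axonal protein tau, was at -4.63, -4.42 and -4.91 with OS and -4.63, -4.99 and -4.80 with OCKS, against -3.86, -3.81 and -3.64 in control MEFs. Its change of -1.03 with OCKS passed (adjusted p = 1.00e-04) and that of -0.88 with OS stayed under 2-fold (adjusted p = 0.00032). Of its other probes, one gave -0.83 and -1.10 and the other -0.39 and -0.29.

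Tubb3, a beta-tubulin used as a marker of young neurons, was at 0.39, 0.32 and -0.06 in OS-treated MEFs and -0.59, 0.23 and -0.37 in OCKS-treated MEFs, against 1.23, 1.22 and 1.36 in control MEFs. It fell by 1.05 with OS (adjusted p = 0.00072), a call lost under most alternatives, with a change of -0.23 under the spike-in scale, and by 1.51 with OCKS (adjusted p = 5.79e-05). Stmn2, a microtubule-destabilizing protein of growth cones, was at -1.26, -1.36 and -0.12 with OS and 0.52, -0.17 and 0.25 with OCKS, against 0.83, 1.05 and 1.05 in control MEFs. It fell by 1.89 with OS (adjusted p = 0.0005), with OS replicate 3 far above the other OS arrays, and changed by -0.77 with OCKS (adjusted p = 0.055). The OS call was kept in 14 alternative settings and lost in 13, among them the slide as a random block (adjusted p = 0.0012).

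Gap43 (chr16:42248552-42340651), a growth cone protein of regenerating axons, was the member on which the treatments lay furthest apart in sign. It was at 3.03, 2.99 and 2.16 in OS-treated MEFs and 0.80, 1.09 and 0.82 in OCKS-treated MEFs, against 1.40, 1.49 and 1.38 in control MEFs. The OS arrays all lay above the controls and the OCKS arrays all below them. It rose by 1.30 with OS (2.46-fold, adjusted p = 0.00077, or 0.0011 with the slide as a random block, which did not pass) and changed by -0.52 with OCKS (adjusted p = 0.075). The OS call was kept in 11 alternative settings and lost in 16. OCKS minus OS was -1.82 (standard error 0.24, adjusted p = 0.033), which did not pass 0.001.

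The neurofilament subunits Nefl and Nefm varied most among replicates. Nefl was at -2.78, -1.51 and -4.08 in OS-treated MEFs and -3.15, -7.05 and -3.89 in OCKS-treated MEFs, against -6.18, -5.76 and -6.32 in control MEFs. Nefm was at -2.59, -1.41 and -3.47 with OS and -2.83, -5.43 and -3.69 with OCKS, against -5.35, -5.20 and -5.21 in control MEFs. All OS arrays lay above the controls for both genes, but OCKS replicate 2 lay below every control array. The changes with OS were 3.30 for Nefl (standard error 0.90, adjusted p = 0.0082) and 2.76 for Nefm (standard error 0.62, adjusted p = 0.0027), and with OCKS 1.39 and 1.27 (adjusted p = 0.19 and 0.093). None passed. Both genes lie on chromosome 14 (chr14:68083863-68089095 for Nefl and chr14:68119545-68125004 for Nefm). At its brightest probe Nefh, the heavy subunit, was not above background on any treated or control MEF array. Its other probe was above background on 4 arrays over all groups, which cannot all be PGC arrays. Dcx, a microtubule protein of migrating neurons, was above background at its brightest probe on 0 OS arrays and 1 OCKS array, against 2 control arrays. Uchl1, a ubiquitin hydrolase of neurons, changed by -0.84 with OS and -1.84 with OCKS (adjusted p = 0.0025).

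Of the granins, which fill dense-core secretory granules, Scg2 fell and Chga did not pass. Scg2 was at -7.92, -6.52 and -6.32 in OS-treated MEFs and -6.60, -7.39 and -6.67 in OCKS-treated MEFs, against -3.91, -4.56 and -4.28 in control MEFs. One array of each treated group was not above background. The fall was 2.67 with OS (standard error 0.43, adjusted p = 0.00031) and 2.64 with OCKS (adjusted p = 0.00032), and under the normexp correction it was 0.94 with OS. Chga changed by -0.51 and 0.01.

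Among glial genes S100b and Sox10 moved in opposite directions. S100b, a calcium-binding protein of astrocytes and Schwann cells, was at 0.28, 0.49 and -0.30 in OS-treated MEFs and 0.20, -0.36 and 0.00 in OCKS-treated MEFs, against -1.21, -1.06 and -1.16 in control MEFs. It rose by 1.30 with OS (adjusted p = 0.00063, or 0.0011 with the slide as a random block, which did not pass), and its change of 1.09 with OCKS did not pass (adjusted p = 0.0019), although no treated array overlapped the controls. The OS call of S100b was kept in 16 alternative settings and lost in 11. Sox10, a transcription factor of the neural crest and of myelinating glia, was at -3.73, -3.86 and -3.81 with OS and -3.16, -3.51 and -3.55 with OCKS, against -2.52, -2.14 and -2.10 in control MEFs. It fell by 1.54 (adjusted p = 2.18e-05) and by 1.15 (adjusted p = 0.00016). The progenitor filament Nes changed by -0.11 and -0.20, the astrocyte filament Gfap by -0.14 and -0.18 and the myelin protein Mbp by -0.10 and -0.16, none past the thresholds.

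Ntrk2 (chr13:58806472-59133970), the receptor TrkB for the neurotrophin BDNF, was at 1.96, 1.58 and 1.96 in OS-treated MEFs and 1.54, 1.90 and 2.13 in OCKS-treated MEFs, against 0.29, -0.26 and -0.09 in control MEFs. It rose by 1.85 with OS (standard error 0.19, 3.61-fold, adjusted p = 1.16e-05) and by 1.88 with OCKS (3.67-fold, adjusted p = 1.03e-05). No treated array overlapped a control array. Its other probes gave larger rises, 2.85 and 5.02 with OS and 2.98 and 5.14 with OCKS, all past the thresholds, so the direction held for 3 of 3 probes and the size did not. TrkB is made in a full-length and a truncated form that lacks the kinase, and the files do not say which transcripts each probe reads.

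**Figure D3:**
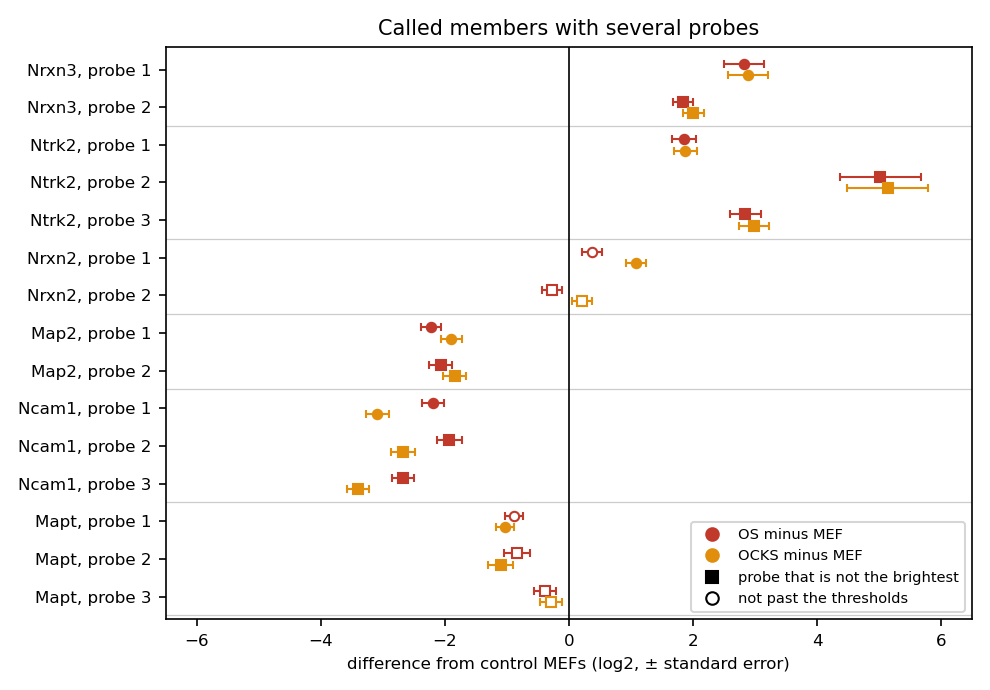
Differences from control MEFs (x axis, log2, bars ± standard error) for each detected probe of the called genes with several probes (rows), in OS-treated (red) and OCKS-treated MEFs (orange); circles are the brightest probe, squares the others, and open symbols did not pass. The 3 probes of Ncam1 all lie to the left and the 3 of Ntrk2 to the right, while the second probes of Nrxn2 and the third of Mapt lie near 0.

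None of the genes of synaptic transmission and neuronal identity passed the thresholds in treated MEFs, but most were too dim to be tested. Of the 4 transmission genes 1 was tested under each treatment, and of the 4 RNA-binding proteins and transcription factors also 1. Gria1, an AMPA receptor subunit, was above background on 1 OS array and 0 OCKS arrays, against 3 control arrays, which were at -6.17, -6.25 and -5.85. Its change was -1.04 with OS (adjusted p = 0.033), and with OCKS it was at least 2.51-fold lower (adjusted p = 0.0012), neither past the thresholds. Gria2, another AMPA subunit, was not above background on any treated or control MEF array, and Grin1, the obligatory NMDA receptor subunit, on 1 OS and 1 OCKS array, against 2 control arrays. Gad1, which makes GABA, was above background on 2 OS arrays and 1 OCKS array and on no control array, and so was not tested. It was at -6.62, -6.55 and -7.69 with OS and -7.39, -7.75 and -8.35 with OCKS, against -9.55, -10.15 and -9.50 in control MEFs. Without the filter on dim probes Gad1 was called as a rise under both treatments, and without OS replicate 3 with OS. The RNA-binding protein Elavl3 was above background on 0 OS arrays and 1 OCKS array, against 2 control arrays. Its levels were -6.62, -7.30 and -7.59 with OCKS, against -8.35, -7.90 and -7.26 in control MEFs. With OCKS the count therefore does not show a fall. At its brightest probe the splicing factor Rbfox3 was above background on no treated array, against 1 control array. Its other probes, not tested in treated MEFs, gave -1.93 and -1.16 with OS and -2.01 and -0.45 with OCKS. The transcription factor Neurod1 was above background on no treated array, against 2 control arrays. Elavl4, which was on all arrays, changed by 0.15 and 0.04.

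Between OCKS- and OS-treated MEFs none of 27 genes tested rose or fell in limma's test (0.0% of all genes did in either direction), and 11 (40.7%) had an unadjusted p under 0.05, against 17.8% of all genes. Groups did not overlap for 5 (18.5%), against 20.5% of all genes. Those 5 were Gap43, Ncam1 (-0.90), Nrxn2, Snap25 and Sox10 (0.39). The widest differences without separation were those of Nefl (-1.91, adjusted p = 0.31), Nefm (adjusted p = 0.25) and Stmn2 (1.11, adjusted p = 0.15).

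In E15.5 PGCs the shares of rises and falls were near those of all genes. Of 34 tested against control MEFs, 9 rose (26.5%), against 31.8% of all genes, 10 fell (29.4%), against 25.2%, and 15 did not pass. The median change was -0.27, against 0.30 over all genes, and groups did not overlap for 29 (85.3%), against 84.5%. Rises were 55.8% of all calls, or 44.3% with the spike-in scale.

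**Figure D4:**
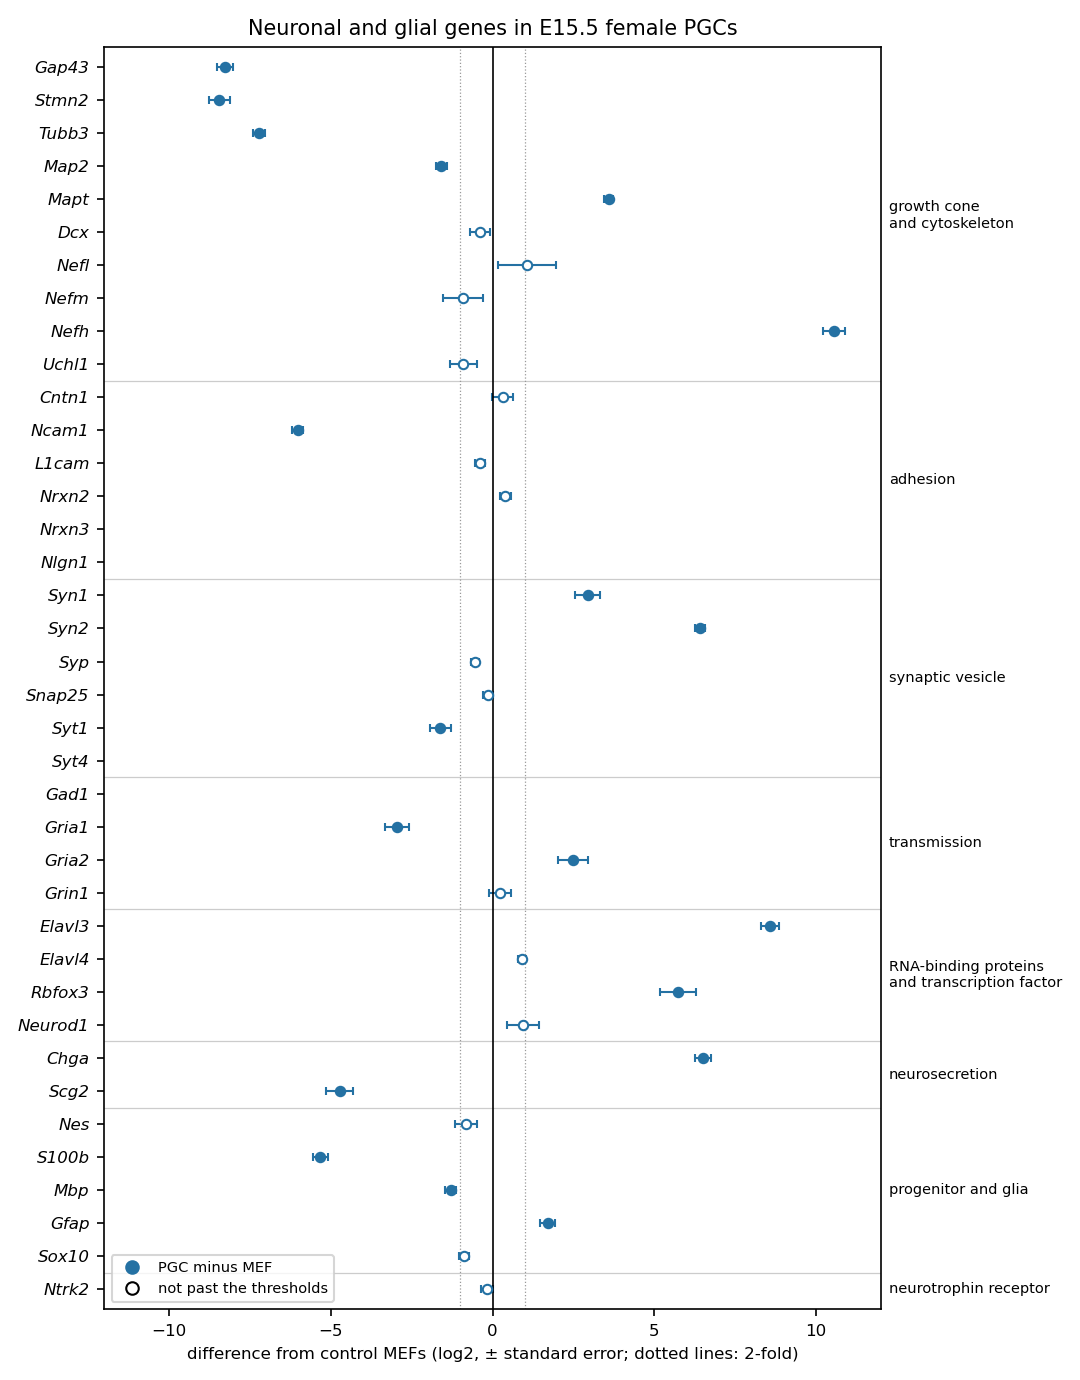
Differences of the 38 genes between E15.5 PGCs and control MEFs (x axis, log2, bars ± standard error), by role (rows); filled points passed both thresholds and rows without a point were not tested. Nefh and Elavl3 lie furthest to the right and Stmn2 and Gap43 furthest to the left.

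Nefh, which did not rise in treated MEFs, was at 1.84, 1.79 and 1.94 in PGCs, against -9.13, -8.31 and -8.61 in control MEFs, none of which was above background. By this probe it was at least 933-fold higher (adjusted p = 3.27e-10, limma), and its other probe gave a log2 difference of 6.32, so the size depended on the probe. Elavl3, a neuronal RNA-binding protein (HuC), was at 0.89, 0.71 and 0.61 in PGCs, against -8.35, -7.90 and -7.26 in control MEFs (8.57, adjusted p = 4.29e-10). No PGC array came near a control array for either gene.

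Chga was at 0.86, 1.04 and 1.05 in PGCs, against -5.60, -5.43 and -5.54 in control MEFs (6.51, adjusted p = 1.42e-09). Syn2 was at 2.71, 2.53 and 2.74 in PGCs, against -3.99, -3.59 and -3.71 in control MEFs (6.42, adjusted p = 6.21e-11). Rbfox3 was also higher, by 5.73, with 1 of 3 control arrays above background, and its other probes gave 6.57 and 1.94, of which the second did not pass. Higher too were Mapt by 3.59, Syn1 by 2.94, Gria2 by at least 2.55-fold and Gfap by 1.70. With detection required in both groups, 4 rises were left.

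On the other side, Stmn2 was at -7.51, -7.07 and -7.86 in PGCs, against 0.83, 1.05 and 1.05 in control MEFs (-8.45, adjusted p = 1.20e-09), with 1 of 3 PGC arrays well above background. Gap43 was at -7.26, -6.63 and -6.63 in PGCs, against 1.40, 1.49 and 1.38 in control MEFs (-8.26, adjusted p = 1.58e-10). For both, all PGC arrays lay far below all control arrays. Tubb3 was at -5.86, -5.98 and -6.00 in PGCs, against 1.23, 1.22 and 1.36 in control MEFs (-7.22, adjusted p = 9.54e-11). Ncam1 was at -2.57, -2.38 and -2.21 in PGCs, against 3.61, 3.62 and 3.68 in control MEFs (-6.03, adjusted p = 1.87e-10). S100b was lower by 5.32 on the log2 scale, Scg2 at least 13.2-fold and Gria1 at least 3.70-fold, and Syt1 and Map2 fell by 1.61 and 1.58. Mbp fell by 1.30 at its brightest probe, while its other probes gave 0.30 and -0.78 and did not pass, so its sign depended on the probe.

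The members that rose in treated MEFs did not pass in PGCs, apart from Gap43 and S100b, which were lower there. Cntn1 changed by 0.32 (adjusted p = 0.38), Ntrk2 by -0.16 (adjusted p = 0.45) and Nrxn2 by 0.40 (adjusted p = 0.038), and Nrxn3 and Nlgn1 were not tested. The other Ntrk2 probes gave 1.40 and -3.07 in PGCs, so the sign depended on the probe. Snap25 (-0.13) and Syp (-0.53, adjusted p = 0.0021), which fell in treated MEFs, stayed under 2-fold.

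Lists of other nervous system genes, chosen by function, gave the setting. They too were chosen with earlier results of these data known, so their counts are not independent of those results. Their counts are to be read against all genes tested, of which OS raised 10.5% and lowered 13.2%, and OCKS raised 11.0% and lowered 14.4%. They also depended on the scaling: with the spike-in scale, under which 4142 genes rose and 602 fell with OS over all genes (1714 and 2140 in the main setting), OS raised 6 and lowered 4 of the axon growth genes, and OCKS raised 3 and lowered 6. On that scale rises outnumbered falls in 7 of the 9 lists with OS. Of 23 tested genes of axon growth and the neuronal cytoskeleton, OS raised 2 and lowered 9 (median -0.50), and OCKS raised 1 and lowered 8 (median -0.98). The falls were led by Stmn4 (-4.18 and -4.66), a stathmin, Tubb2b (-3.38 and -4.26), a tubulin of migrating neurons, Dpysl3 (-2.42 and -2.64) and Basp1 (-2.23 and -2.65), proteins of the growth cone. Chl1, the close homologue of L1 and a partner of contactins, rose by 3.92 (adjusted p = 0.00065) and 3.69 (adjusted p = 0.00093). Of 17 genes of neurosecretion, OS raised 1 and lowered 5 and OCKS raised 0 and lowered 6, led by neuropeptide Y (Npy, -4.59 and -5.09).

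Of 14 neurotrophic factors and receptors, OS raised 2 and lowered 7 (median -1.36), and OCKS raised 1 and lowered 7 (median -1.29). Gfra2, the receptor for neurturin, rose by 4.46 and 4.33, while Ret, the kinase it signals through, fell by 4.01 with OS and was at least 9.04-fold lower with OCKS (adjusted p = 0.00019 and 0.00011). Bdnf, the ligand of TrkB, fell by 1.28 and 1.24 (adjusted p = 6.13e-05 and 7.74e-05). Of 17 genes of vesicle release, OS raised 1 and lowered 3 and OCKS raised 1 and lowered 4, and the gene that rose was Amph, an endocytic protein, by 4.93 and 4.40 (adjusted p = 1.34e-07 and 2.73e-07). Of 18 genes of glia and myelin, OS raised 2 and lowered 5 and OCKS raised 3 and lowered 5. The crest cadherin Cdh19 rose by 2.33 and 2.66, and Fabp7, of radial glia, fell by 3.52 and 3.49. Among proneural and neuronal transcription factors, Zic2 rose under both treatments, by 2.13 (adjusted p = 2.07e-05) in OCKS-treated MEFs. Postsynaptic scaffolds gave 0 rises and 2 falls of 11, and channels and receptors 1 rise and 2 falls of 16, under either treatment.

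**Figure D5:**
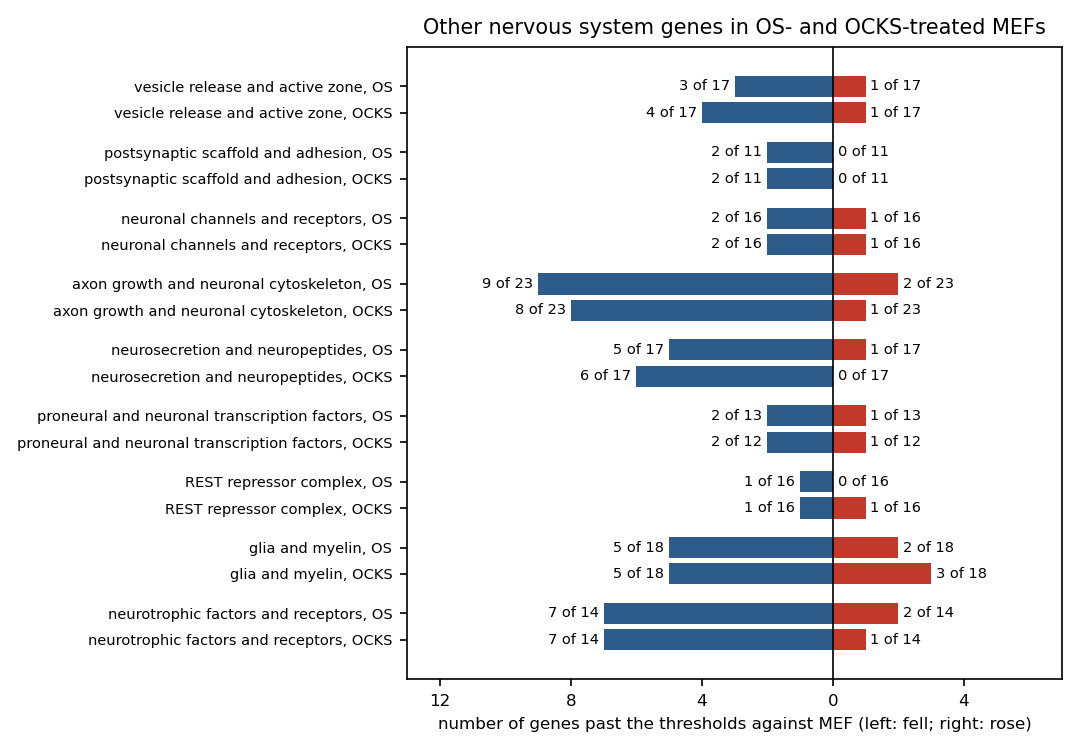
Number of genes that fell (bars to the left) or rose (bars to the right) against control MEFs at both thresholds, for 9 lists of other nervous system genes in OS- and OCKS-treated MEFs (rows), each labelled with the number of genes tested. At this scaling falls outnumber rises in every list but that of the REST complex with OCKS, where they are equal.

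The gene of REST itself, Rest, fell at the main scaling. It was at -0.05, 0.01 and -0.21 in OS-treated MEFs and 0.17, -0.03 and -0.28 in OCKS-treated MEFs, against 1.08, 1.10 and 0.72 in control MEFs, a fall of 1.05 with OS (adjusted p = 0.00014) and just over 2-fold with OCKS (adjusted p = 0.00017). With the spike-in scale the Rest changes were -0.23 and -0.67 and neither passed, nor did they after normexp correction (-0.95 and -0.93) or without MEF replicate 1 or 2. No other gene of the 16 in its complex passed with OS, and with OCKS the corepressor Rcor2 rose by 1.09. Dnmt1, the knockdown target, was lower on every treated array than on any control array, by 2.07 with OS (adjusted p = 3.44e-06) and 2.36 with OCKS (adjusted p = 1.40e-06). Of the delivered factors, Pou5f1, which encodes Oct4, rose by 5.76 with OS and changed by 0.82 with OCKS (adjusted p = 0.08). Myc rose by 1.55 and 1.28, also with OS, which does not carry it, and Sox2 (0.21 and 1.28) and Klf4 (-0.05 and -0.23) did not pass. Whether these probes read the plasmids' transcripts is not given in the sources used here.

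Markers of other cell types also changed. Their counts are to be read against all genes tested, of which OS raised 10.5% and lowered 13.2%, and OCKS raised 11.0% and lowered 14.4%. In bulk samples, fewer cells of a type and less RNA per cell cannot be told apart. Of 11 leukocyte markers 0 rose and 10 fell under either treatment, and their summed signal was 4.62 to 5.57 times the 75th percentile in OS-treated MEFs and 5.55 to 7.01 in OCKS-treated MEFs, against 25.8 to 26.9 in control MEFs. Of 8 Schwann and crest markers tested, 3 of the list being members, OS raised 2 and lowered 4 and OCKS raised 1 and lowered 3. Their sum was 1.64 to 2.18 with OS and 1.81 to 2.23 with OCKS, against 2.05 to 2.32 in control MEFs, and Erbb3 was not above background on any treated array. Of 8 neuron markers tested, 9 of the list of 12 being members, OS raised 0 and lowered 4 and OCKS raised 0 and lowered 3. With the spike-in scale OS lowered 1 and OCKS 3. Their sum was 4.21 to 4.31 with OS and 5.09 to 6.15 with OCKS, against 14.5 to 17.5 in control MEFs. Most of the control sum was the member Snap25, at 940% to 1272% of the 75th percentile (846% to 1135% in PGCs). The neuron list thus largely repeats the members and is not separate evidence. By the brightest probe Rbfox3 was not above background on any OS or OCKS array, nor Gad1 on any control array. In PGCs the sums were 15.4 to 20.3 for leukocyte, 2.70 to 3.03 for Schwann and crest and 11.0 to 13.7 for neuron markers. The endothelial sum was 2.75 to 3.33 with OS and 3.08 to 3.50 with OCKS, against 6.18 to 6.83 in control MEFs. Of 7 gonadal somatic markers 4 fell with OS and 3 with OCKS, and of 15 fibroblast markers 3 rose and 6 fell under each treatment. Of 8 epithelial markers 1 rose and 3 fell under each. In PGCs, against control MEFs, 31.8% of all genes tested rose and 25.2% fell. There 5 of 9 gonadal somatic markers rose (Amhr2, Gata4, Amh, Nr5a1 and Wt1) and 2 fell. Of 8 endothelial markers 2 rose (Cdh5 and Tie1) and 0 fell, and of 9 epithelial markers 3 rose (Cdh1, Epcam and Cldn7) and 2 fell. Of 11 leukocyte markers 7 fell, and 15 of 15 fibroblast markers fell. The part of such cells in the changes was not tested.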

How the data were processed

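RNA of 12 samples was hybridised to single-colour Agilent arrays. The authors deposited scanner files whose intensity values were background-corrected by the scanner software, and a table of log2 values. The processing of that table is not given in the sources used here. In 10 of 12 columns its values correlated at 0.934 to 0.996 with scanner values centred on each probe's median, and these columns served as an alternative. A correlation cannot show by what each array was shifted. Here each intensity was divided by the array's 75th percentile before log2 was taken. Of 39429 probes, 83 uneven ones were left out. Probes were named through RefSeq accessions, and the brightest probe stood for a gene. All 4 groups were fitted together in limma (version 3.58.1, R 4.3.3), with Benjamini-Hochberg adjustment over all genes tested. The precision is limited by 3 arrays a group. The members and lists were chosen with earlier results of these data known. Members past both thresholds in treated MEFs are described with their values on each array, and in PGCs the 4 largest changes each way. The script was tested on simulated data. Alternatives covered scaling, background, filters, probes, slides and each replicate left out.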

Additional observations from a re-analysis of the deposited data

Results flagged for a closer look

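Gap43 differed between the treatments in sign. OCKS minus OS was -1.82 on the log2 scale, with every OS array above and every OCKS array below all 3 control MEF arrays. The adjusted p of the difference was 0.033 (limma), which did not pass 0.001. The rise with OS against control MEFs was called in 11 alternative settings and not in 16. Between the OCKS array and the OS array that shared a slide, the difference was -2.23.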

How the results depend on the processing

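With spike-in scaling, 7 genes rose and 3 fell in OS-treated MEFs, and rises made up 87.3% of all calls there, against 44.5% in the main setting. That scaling moved the median change of all genes to 0.61 with OS, 0.15 with OCKS and -0.12 in PGCs, against -0.21, -0.19 and 0.30. Requiring detection in both groups, which leaves fewer genes, gave 4 rises in PGCs. Fitting only the 2 groups compared gave 3 rises with OS. At an adjusted p under 0.05, 1 gene, Gap43, was lower with OCKS than with OS, with or without the 2-fold minimum. With each replicate left out in turn, 3 to 7 genes rose and 6 to 9 fell with OS, 3 to 5 rose and 7 to 10 fell with OCKS, and 8 to 10 rose and 9 to 10 fell in PGCs. Between OCKS and OS, 0 rose and 0 to 1 fell. The lowest OS count of rises, 3, came without MEF replicate 1, and the fall between treatments without OS replicate 3. With the replicate number as a block, 4 genes rose with OS, 4 with OCKS and 9 in PGCs, and same-numbered samples correlated at -0.231 to 0.35, so the numbers do not pair the samples. With the slide as a random block, 4 rose with OS and 4 with OCKS. Without both arrays of slide 3, chosen after the data were seen, 4 rose and 8 fell with OS. No member that rose or fell in the main setting changed sign in any setting, but with spike-in scaling the members' median with OS was 0.50, against -0.32. The cause of these shifts was not tested. Genes near background, such as Nrxn3, Nlgn1 and Scg2, have the least certain sizes.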
